A study of Mus musculus with 36 samples.

Results

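Hepatocytes treated with an adenoviral vector for mouse GKRP-446P (mP) were compared with untreated hepatocytes of the same mice, at the endogenous level of glucokinase (GK). The comparison takes in 9 of the 36 cultures of the series, chosen by their labels. They are 3 cultures with mP (labelled Ad-mP-(No GK), 1 for each mouse) and 6 untreated cultures (Control-(No GK), 2 for each mouse). The cells were primary hepatocytes of 3 female mice of a B6N line that carries the 446L form of mouse Gckr. The labels give the genotype of mice 1 and 2 as Gckr-446L and that of mouse 3 as Gckr-446P/L, whereas the methods speak of homozygous 446LL mice. The series describes these hepatocytes as GKRP-deficient, and their own Gckr transcript was measured in every untreated culture. All cultures had 10 nM insulin and 10 nM dexamethasone, a 24 h culture at 5 mM glucose and then 4 h at 25 mM glucose. The remaining 27 cultures carried human GKRP-446P (hP), human GKRP-446L (hL) or mouse GKRP-446L (mL) vectors, a vector to overexpress GK, or GK with each GKRP vector. An empty vector is not among the conditions, so in mP against untreated the effect of the vector and that of GKRP cannot be told apart.

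GKRP, the product of Gckr, is the regulatory protein of GK in the liver. It binds GK, inhibits it in competition with glucose and holds it in the nucleus when glucose is low. GK makes glucose 6-phosphate, and the transcription factor ChREBP (gene Mlxipl) couples hexose phosphates to the transcription of genes such as Pklr and Txnip. Adult hepatocytes are mostly out of the cell cycle. In cells that enter S phase, E2F factors released from proteins of the retinoblastoma family raise the genes that license origins and copy DNA.

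Libraries held between 3924674 and 7678682 reads in untreated cultures and between 5824512 and 6666177 with mP. Levels are in CPM (a gene's share of its library, TMM-normalized), and the untreated value of a mouse is from the sum of its 2 cultures. Alb, the main secreted protein of hepatocytes, was 67699, 102363 and 94918 CPM in untreated cells of mice 1, 2 and 3, and 66699, 103729.7 and 91088 CPM with mP. The summed level of 10 hepatocyte markers was high in both groups and overlapped (82503 to 124045 CPM untreated and 82203 to 126219.5 CPM with mP). Some markers of other liver cells were also present. The summed level of 13 macrophage markers was 298 to 368 CPM untreated and 276 to 311 CPM with mP, that of 10 endothelial markers 105 to 146 and 104 to 159 CPM, that of 10 stellate cell markers 37.7 to 133 and 35.3 to 134 CPM, and that of 6 cholangiocyte markers 22.6 to 245 and 16.8 to 143 CPM. A single gene made up most of the highest stellate and cholangiocyte sums. Reln was 114 CPM in untreated cells of mouse 2 and Spp1 228 CPM in those of mouse 1. The stellate markers Col1a1, Col1a2, Acta2, Pdgfrb and Des and the cholangiocyte markers Krt7, Krt19, Epcam and Cftr were too low for a test. Of the 40 markers that could be tested, hepatocyte markers included, edgeR called 0, with 2 at an unadjusted p under 0.05, and DESeq2 called 1 hepatocyte marker. Of 9 markers of lymphocytes and neutrophils 4 had 0 reads in these samples and none reached the level needed for a test. In bulk RNA, fewer cells of a type and less RNA per cell cannot be told apart.

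The mouse residue that the vectors vary lies in exon 15 of 19 of Gckr on chromosome 5 of GRCm39, at positions 31466275 to 31466277 of the plus strand. The reference transcript Gckr-202 has the proline codon there, shown in capitals within the spliced sequence because it is the form that the mP vector carries.
Gckr-202: gggcagtccttgCCAgctcctctaaag

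Gckr itself had the highest fold change among the genes that passed the test. Its level was 39.2, 61.3 and 70.7 CPM in untreated cells of mice 1, 2 and 3, and 16142, 13687 and 23053 CPM with mP. The groups were far apart, at 57.1 ± 16.2 CPM and 17627 ± 4857 CPM (SD, n = 3). The log2 fold change was 8.30 (SE 0.76, adjusted p = 2.08e-07, edgeR's quasi-likelihood test). The mean of the 3 differences within a mouse was 8.27 on the log2 CPM scale, and the two-sided exact permutation test of their signs gave p = 0.25, the smallest that 3 pairs allow. With mP, Gckr-202 held 93.0%, 87.9% and 89.4% of the Gckr reads of mice 1, 2 and 3, and between 23.9% and 62.2% in the untreated cultures. The labels' protocol and the methods name mouse transcript 1 for the vector, while the design text of the series names another form, so the exact vector sequence is not settled here. Gckr-207, which retains an intron, had 61.951 to 161.006 reads in untreated cultures and 109.386 to 122.056 with mP, so the 2 ranges overlapped.

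Of 12177 genes tested, 294 (2.41%) were raised and 109 (0.895%) lowered with mP, where a call needed an adjusted p under 0.05 together with a rise to 1.3 times or a fall to 0.7 times the untreated level. The changes upward were larger, as 123 of the raised genes were raised at least 2-fold and 20 of the lowered were at 0.5 of the untreated level or less. All 403 moved the same way in 3 of 3 mice. In 302 of them the mP and untreated samples did not overlap, which was so for 11.3% of all genes tested. The median log2 fold change over all genes was 0.001. Every mouse counted toward these numbers, as 183 genes were raised without mouse 1, 167 without mouse 2 and 69 without mouse 3, and 71, 52 and 19 were lowered. Without the mouse in the model 121 were raised and 15 lowered, and 17 of 39 named genes that were tested lost their call there. They were Cdk1, Dppa3, E2f7, Cldn4, Flnc, Ftl2-ps, Hivep3, Mss51, Ndufb4, Pklr, Ptp4a1, Shroom1, Slc2a2, Tpm2, Trp53inp2, Tubb2b and Txnip. A transcript length offset cost 25 of the 39 their call, Ccne1, Ccne2, Uhrf1, Paqr4, Cdkn1a, Clcn5, Tpm2, Trp53inp2, Pklr, Txnip and Slc2a2 among them.

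**Figure D1:**
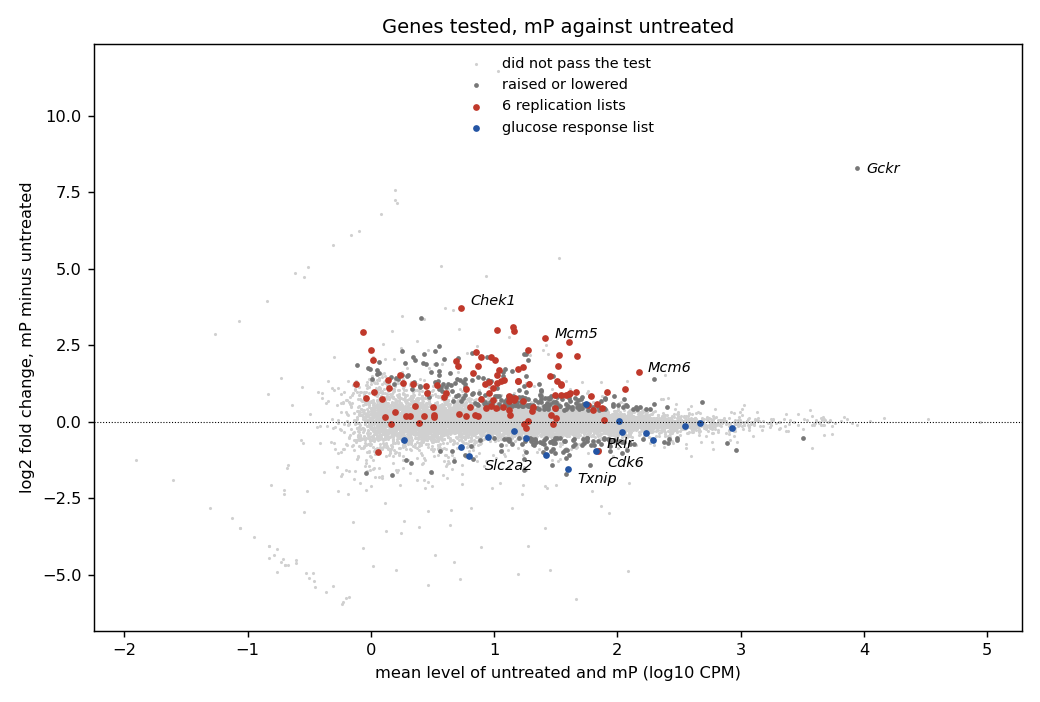
Log2 fold change with mP (y axis) against the mean level of untreated and mP samples in CPM (x axis, log10 scale), 1 point for each gene tested. Red points are the members of 6 lists of DNA replication genes, blue points the glucose response list. 91 genes with a log2 fold change of -6 or lower, or with no reads in either group, are not drawn. Gckr stands alone at the upper right, and most red points lie above 0.

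Genes of DNA replication were prominent among the raised genes. Over 6 lists that cover E2F factors and G1/S cyclins, origin licensing, the fork, deoxynucleotides, the checkpoint and replication-coupled chromatin, 64 of 110 members tested were raised and 1 was lowered, beside 2.41% and 0.895% of all genes. These 64 were 21.8% of the genes raised. Without mouse 3, 35 of the 110 were raised. The lists were drawn up with earlier results of these data known.

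In the list of E2F factors and G1/S cyclins, 10 of 18 members were raised and the median log2 fold change was 0.99. Ccne1 and Ccne2 encode the cyclins E, which activate CDK2 at entry into S phase. Ccne1 was 2.97, 1.27 and 2.83 CPM in untreated cells of mice 1, 2 and 3 and 20.9, 10.5 and 25.2 CPM with mP, and every mP value was above every untreated value. Its log2 fold change was 3.00 (SE 0.23, adjusted p = 1.98e-08). Ccne2 went from 2.57, 3.82 and 2.09 CPM to 22.8, 18.3 and 35.1 CPM (log2 fold change 3.08, SE 0.30, adjusted p = 7.12e-07). Their kinase Cdk2 rose from 14.9, 13.6 and 15.8 CPM to 45.6, 34.8 and 45.1 CPM (log2 fold change 1.49, SE 0.08). For all 3 genes the groups did not overlap. The calls of Ccne1 and Ccne2 were lost with a transcript length offset. The activator E2f1 rose by a log2 fold change of 1.83 (SE 0.21), and the atypical repressors E2f7 and E2f8, which are themselves E2F targets, by 2.35 (SE 0.57) and 2.27 (SE 0.36). E2f7 was at a low level, 0.693, 0.15 and 0.149 CPM untreated and 2.29, 0.81 and 1.89 CPM with mP. Its call was lost without any 1 mouse, at log2 fold changes of 1.89 to 2.97 (adjusted p = 0.0638, 0.154 and 0.317 without mouse 1, 2 and 3), with the second untreated cultures alone (1.75, adjusted p = 0.11) and without the mouse in the model (adjusted p = 0.346). That of E2f8 was lost without mouse 3 (1.71, adjusted p = 0.0759). Tfdp1, a partner of E2F factors, Rbl1, a retinoblastoma family member, Cdc25a, a phosphatase that activates CDK2, and Skp2, which targets p27 for breakdown, completed the raised members. Cdk6, a cyclin D kinase, was the lowered one. It was 109, 68.0 and 100.1 CPM untreated and 39.1, 53 and 50.6 CPM with mP (log2 fold change -0.95, SE 0.19, adjusted p = 0.00504). Its partner Ccnd1 did not pass the test, at 36.9, 7.80 and 15.2 CPM untreated and 21.9, 8.26 and 19.0 CPM with mP (log2 fold change -0.19, SE 0.22, adjusted p = 0.808).

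Among 20 tested genes of origin licensing and firing, 10 were raised, 20 had a fold change above 1 and the median log2 fold change was 1.2. Mcm2 to Mcm7 encode the 6 subunits of the replicative helicase, and all 6 were raised. Mcm5 was 10.5, 4.8 and 5.14 CPM untreated and 58.0, 31.1 and 45.9 CPM with mP (log2 fold change 2.74, SE 0.17, adjusted p = 4.79e-10). Mcm4 was 11.9, 8.85 and 13.2 CPM untreated and 67.6, 52.3 and 88.3 CPM with mP (log2 fold change 2.61, SE 0.12, adjusted p = 5.1e-12). In both genes the lowest mP value was above the highest untreated value, and mouse 2 had the lowest mP value. Mcm2, Mcm3, Mcm6 and Mcm7 had log2 fold changes of 2.19 (SE 0.14), 2.14 (SE 0.09), 1.63 (SE 0.13) and 0.96 (SE 0.11). Orc1, a subunit of the origin recognition complex, and Cdt1, which loads the helicase, rose by 2.02 (SE 0.37) and 1.80 (SE 0.25). Mcm10 and Gins2 were the other raised members. Cdc7, the kinase that fires origins, was 0.594, 0.60 and 1.04 CPM untreated and 1.58, 0.972 and 3.43 CPM with mP and did not pass the test (log2 fold change 1.36, SE 0.41, adjusted p = 0.0665).

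Of 24 tested genes of DNA polymerases and the fork, 18 were raised and 24 had a fold change above 1 (median log2 fold change 0.89). Pcna, the sliding clamp, was 64.0, 83.8 and 71.7 CPM untreated and 154, 127 and 187 CPM with mP (log2 fold change 1.07, SE 0.14, adjusted p = 4.75e-05). Lig1, the ligase of Okazaki fragments, rose by 1.81 (SE 0.12) and Prim1, the catalytic primase subunit, by 2.13 (SE 0.57). Wdhd1 and Timeless, which hold the fork together, rose by 2.02 (SE 0.16) and 1.97 (SE 0.29). The groups did not overlap for any of these 5 genes.

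Among 11 tested genes of deoxynucleotide synthesis 7 were raised (median log2 fold change 0.58). Rrm1, the large subunit of ribonucleotide reductase, was 14.4, 19.1 and 22.1 CPM untreated and 48.7, 40.3 and 51.3 CPM with mP (log2 fold change 1.33, SE 0.13, adjusted p = 8.94e-07). Its small subunit Rrm2 differed more between mice than between groups. It was 16.0, 154 and 68.0 CPM untreated and 21.1, 142 and 67.0 CPM with mP (log2 fold change 0.04, SE 0.20, adjusted p = 0.971). Tyms, which makes thymidylate, Dut, Dtymk, Shmt1 and the nucleoside carrier Slc29a1 were among the other raised members, with log2 fold changes between 0.49 and 1.27.

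Of 31 genes of the replication checkpoint and recombination 20 reached the level needed for a test, and 7 of these were raised (median log2 fold change 0.75). Chek1, the kinase that restrains origins and mitosis when forks stall, had the largest log2 fold change after Gckr among the genes raised. It was 0.594, 0.975 and 0.596 CPM in untreated cells and 9.74, 6.80 and 13.9 CPM with mP (log2 fold change 3.70, SE 0.34, adjusted p = 2.54e-07). Each of the 3 mP values was several times the highest untreated one. Atr, the kinase above CHK1, was 24.6, 38.4 and 30.1 CPM untreated and 25.8, 31.1 and 30.3 CPM with mP (log2 fold change -0.07, SE 0.17, adjusted p = 0.932). Topbp1, Brca2, Rad51c, Msh6 and Usp1 were among the other raised members. Rad51c, which acts in homologous recombination, was at 0.198, 0.0750 and 0.298 CPM untreated and 2.15, 1.3 and 1.2 CPM with mP, and few untreated reads stand behind its estimate (log2 fold change 2.94, SE 0.62, adjusted p = 0.00673). It did not pass the test without mouse 2 (adjusted p = 0.131) or mouse 3 (adjusted p = 0.166).

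Of 17 genes of replication-coupled chromatin 12 were raised (median log2 fold change 1.06). Uhrf1, which brings DNMT1 to hemimethylated DNA, was 7.03, 1.57 and 1.42 CPM untreated and 31.4, 13.0 and 31.9 CPM with mP (log2 fold change 2.98, SE 0.32, adjusted p = 2.36e-06). Mouse 1 was the high one among the untreated values and still below the lowest mP value. The call of Uhrf1 was lost with a transcript length offset. Chaf1b, a subunit of the histone chaperone CAF-1, went from 5.74, 7.27 and 5.44 CPM to 35.8, 26.6 and 31.7 CPM (log2 fold change 2.34, SE 0.19). Dnmt1, the maintenance DNA methyltransferase, rose by 0.97 (SE 0.15), whereas Dnmt3a and Dnmt3b, the de novo enzymes, had log2 fold changes of 0.12 (SE 0.14) and -0.08 (SE 0.34) and did not pass the test. Hells, Ezh2, Atad2, Hmgb2, Slbp, Asf1a, Nasp, Hat1 and Chaf1a rose by between 0.83 and 1.83.

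Of 26 genes of G2/M and mitosis 18 were too low for a test, and 1 of the 8 tested was raised, beside 2.41% of all genes (median log2 fold change -0.20). This was Cdk1, the mitotic kinase, at 0.693, 0.525 and 0.522 CPM untreated and 4.16, 2.11 and 2.74 CPM with mP (log2 fold change 2.30, SE 0.46, adjusted p = 0.00413). The groups did not overlap, and the call was lost without mouse 1 (adjusted p = 0.104) or mouse 3 (adjusted p = 0.181). Ccna2, the cyclin of S phase and G2, was too low for the test, at 0.396, 0.300 and 0.373 CPM untreated and 0.573, 0.486 and 0.514 CPM with mP. Mki67, a marker of cycling cells, was 3.76, 0.675 and 0.447 CPM untreated and 2.44, 0.972 and 0 CPM with mP (log2 fold change -0.39, SE 0.58, adjusted p = 0.865). Ccnb1, Ccnb2, Plk1, Aurkb, Bub1, Cdc20, Foxm1 and Birc5 were each under 1.5 CPM in all 6 samples. Of 20 targets of p53, 1 was raised and 1 lowered, beside 2.41% and 0.895% of all genes (median log2 fold change 0.07). Cdkn1a, which encodes the CDK inhibitor p21, was 186, 237 and 214 CPM untreated and 301, 267 and 313 CPM with mP (log2 fold change 0.47, SE 0.09, adjusted p = 0.00394), a call lost without mouse 1 (adjusted p = 0.0925) or mouse 3 (adjusted p = 0.307). Btg2, an antiproliferative gene, fell by 0.57 (SE 0.13, adjusted p = 0.0144).

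**Figure D2:**
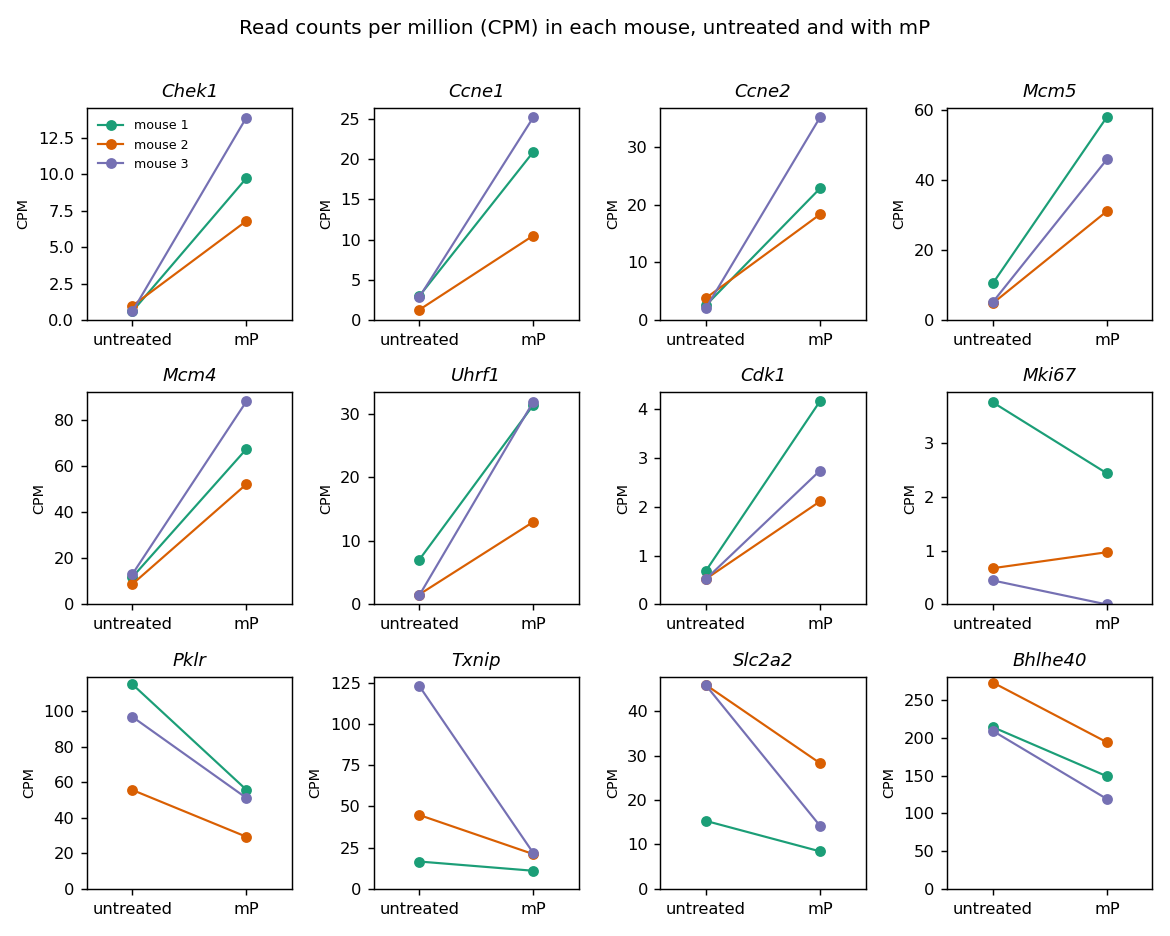
CPM (y axis, linear from 0) of 12 genes in untreated cells and with mP, 1 line for each of the 3 mice, the untreated value from the sum of 2 cultures. The first 7 panels rise in 3 of 3 mice, Mki67 does not move one way, and Pklr, Txnip, Slc2a2 and Bhlhe40 fall in 3 of 3 mice.

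Since E2F factors act on many replication genes, promoters were searched for E2F-type motifs. RefSeq promoter windows of GRCm38.p6 (250 bases before to 50 after a start site) were matched by symbol for 8966 of the 12166 symbols tested and for 231 of the 294 raised genes. The motifs searched, on both strands, were TTTCCCGC, TTTGGCGC, TTTCGCGC and TTTGCCGC, and matches on opposite strands can overlap. They occurred in 2.26% of all 32851 windows. A match was present for 25 of 55 raised members of the 6 replication lists (45.5%), 5 of 36 members tested but not raised (13.9%), 27 of 176 other raised genes (15.3%), 436 of 8966 genes tested (4.86%) and 0 of 88 lowered genes. These shares are a description, and the part that base composition has in them was not tested. Of the 4 windows shown, Uhrf1 is at chr17:56304063-56304362 (plus strand), Mcm5 at chr8:75109259-75109558 (plus strand), E2f7 at chr10:110745189-110745488 (plus strand) and Mcm3 at chr1:20820263-20820562 (minus strand). They are shown because these genes had the largest log2 fold changes among raised replication genes with a match, together with Rad51c, which has 2 such windows and is not printed. The match is in capitals, and in Mcm5 2 matches overlap.
Uhrf1: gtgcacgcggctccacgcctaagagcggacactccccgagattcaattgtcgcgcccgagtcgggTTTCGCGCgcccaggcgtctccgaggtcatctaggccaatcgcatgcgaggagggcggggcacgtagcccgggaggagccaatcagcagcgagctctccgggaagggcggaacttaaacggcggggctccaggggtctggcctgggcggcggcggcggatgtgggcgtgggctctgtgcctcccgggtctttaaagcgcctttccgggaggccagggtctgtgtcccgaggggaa
Mcm5: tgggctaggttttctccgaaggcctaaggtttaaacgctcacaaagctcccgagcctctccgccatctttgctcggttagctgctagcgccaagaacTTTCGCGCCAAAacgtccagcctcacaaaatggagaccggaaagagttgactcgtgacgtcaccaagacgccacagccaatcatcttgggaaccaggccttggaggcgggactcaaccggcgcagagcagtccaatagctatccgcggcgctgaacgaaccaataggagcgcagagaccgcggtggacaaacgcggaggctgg
E2f7: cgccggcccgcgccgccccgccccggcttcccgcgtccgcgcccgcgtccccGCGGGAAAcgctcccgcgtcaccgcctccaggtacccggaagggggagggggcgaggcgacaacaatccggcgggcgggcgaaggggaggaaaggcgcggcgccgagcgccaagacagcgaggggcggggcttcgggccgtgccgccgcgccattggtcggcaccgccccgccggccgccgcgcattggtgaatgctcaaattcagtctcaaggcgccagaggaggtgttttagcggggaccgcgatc
Mcm3: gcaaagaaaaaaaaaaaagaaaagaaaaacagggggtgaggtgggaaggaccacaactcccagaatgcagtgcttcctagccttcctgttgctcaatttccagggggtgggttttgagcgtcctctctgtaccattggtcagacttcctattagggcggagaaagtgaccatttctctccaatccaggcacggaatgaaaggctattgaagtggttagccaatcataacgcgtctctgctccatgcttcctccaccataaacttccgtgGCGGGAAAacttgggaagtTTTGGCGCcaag

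**Figure D3:**
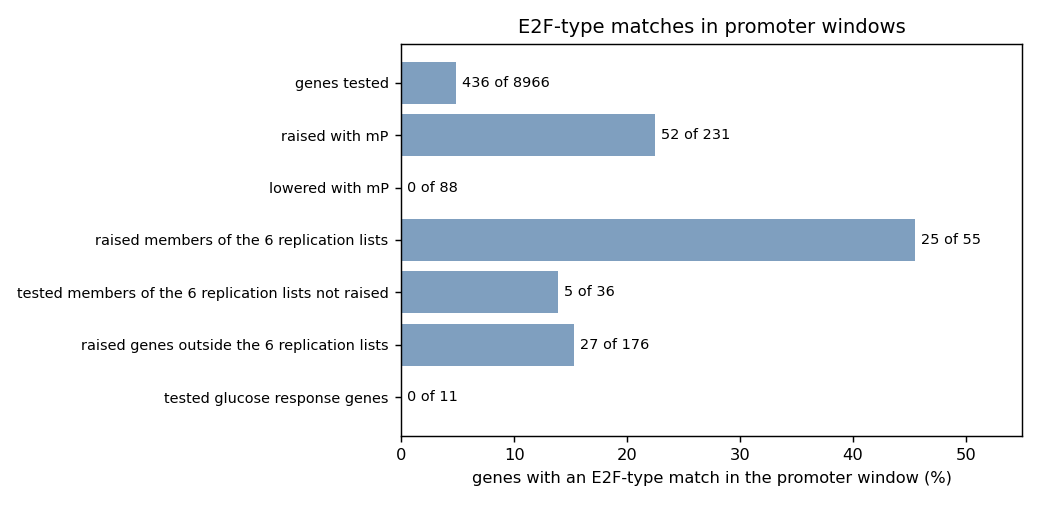
Share of genes (x axis, percent) whose promoter window holds an E2F-type match, for 7 sets of genes (bars, with the number of genes with a match and the number with a window). The bar of the raised replication genes is at 45.5%, that of all genes tested at 4.86%.

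Of 17 tested genes of the ChREBP response to glucose 4 were lowered, beside 0.895% of all genes, 1 was raised, 12 did not pass the test and 15 had a fold change below 1, with a median log2 fold change of -0.48 beside 0.001 over all genes. Pklr, the liver pyruvate kinase, was 115, 55.6 and 96.7 CPM in untreated cells of mice 1, 2 and 3 and 55.7, 29.3 and 51.1 CPM with mP. It was close to 0.5 of the untreated level in each mouse, while the groups overlapped because mouse 2 was low in both (log2 fold change -0.97, SE 0.15, adjusted p = 0.00025). Txnip, an arrestin that limits glucose uptake, was 16.6, 44.8 and 123 CPM untreated and 11, 21.1 and 21.8 CPM with mP (log2 fold change -1.53, SE 0.30, adjusted p = 0.00346). The untreated values differed widely between mice, and its log2 fold change did not pass the test without mouse 3, at -0.88 (adjusted p = 0.334), or without mouse 2, at -1.74 (adjusted p = 0.0682). Slc2a2, the glucose transporter GLUT2, was 15.3, 45.9 and 45.8 CPM untreated and 8.45, 28.3 and 14.2 CPM with mP (log2 fold change -1.10, SE 0.27, adjusted p = 0.0206), and it did not pass the test without mouse 2, at -1.33 (adjusted p = 0.0716), or without mouse 3, at -0.79 (adjusted p = 0.487). Bhlhe40, a repressor induced by glucose and by hypoxia, was 214, 273 and 209 CPM untreated and 149, 194 and 119 CPM with mP (log2 fold change -0.60, SE 0.11, adjusted p = 0.00185), without overlap. Mlxipl, which encodes ChREBP itself, was the raised member, at 57.3, 41.9 and 34.4 CPM untreated and 93.9, 53.3 and 54.9 CPM with mP (log2 fold change 0.58, SE 0.16, adjusted p = 0.0342). None of the 4 lowered genes passed without the mouse in the model, and 5, 2 and 1 genes of the list were lowered without mouse 1, 2 and 3.

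Other members of the list did not pass the test. Rgs16 and Arrdc4 had log2 fold changes of -1.12 (SE 0.40, adjusted p = 0.14) and -0.83 (SE 0.34, adjusted p = 0.23). G6pc, the catalytic subunit of glucose 6-phosphatase, was 0.396, 2.77 and 3.65 CPM untreated and 0.717, 2.43 and 1.2 CPM with mP, a low level in both groups (log2 fold change -0.60, SE 0.53, adjusted p = 0.717). Khk, the kinase of fructose metabolism, had a log2 fold change of 0.02 (SE 0.15). Of the 15 GK-responsive genes that the study's text names, Pklr and Slc2a2 were lowered, beside 0.895% of all genes. None was raised and 14 had a fold change below 1 (median -0.48). That list was chosen on these samples and is not independent evidence of a direction. Of 26 genes of glycolysis and gluconeogenesis, Pklr and Pfkfb3 were lowered and Pfkfb1 was raised, beside 0.895% and 2.41% of all genes (median -0.13). The bifunctional enzymes moved in opposite directions, as Pfkfb3 was 67.3, 91.8 and 85.6 CPM untreated and 42.0, 59.1 and 44.2 CPM with mP (log2 fold change -0.75, SE 0.16, adjusted p = 0.00859) and the liver form Pfkfb1 was 2.77, 3.07 and 3.06 CPM untreated and 6.88, 4.70 and 6.69 CPM with mP (log2 fold change 1.01, SE 0.25, adjusted p = 0.0222).

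ChREBP is known to act through a carbohydrate response element, a pair of E-box-like half-sites. Windows of Pklr and Txnip are shown because both genes were lowered and hold a match to it, in capitals. The pattern searched, on both strands, was CACGNG and CNCGNG with 5 bases between them, where N is any base. It occurred in 0.365% of all windows and for 75 of 8966 genes tested (0.836%), and for 2 of 11 tested genes of the glucose response with a window, 3 of 88 lowered and 2 of 231 raised genes. Pklr is at chr3:89136373-89136672 (plus strand) and Txnip at chr3:96557707-96558006 (plus strand) of GRCm38.p6.
Pklr: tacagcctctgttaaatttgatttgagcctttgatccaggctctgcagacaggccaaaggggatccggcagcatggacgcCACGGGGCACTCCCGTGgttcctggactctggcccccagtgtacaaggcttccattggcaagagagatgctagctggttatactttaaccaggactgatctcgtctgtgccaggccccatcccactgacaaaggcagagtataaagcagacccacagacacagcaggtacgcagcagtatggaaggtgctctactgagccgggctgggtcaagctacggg
Txnip: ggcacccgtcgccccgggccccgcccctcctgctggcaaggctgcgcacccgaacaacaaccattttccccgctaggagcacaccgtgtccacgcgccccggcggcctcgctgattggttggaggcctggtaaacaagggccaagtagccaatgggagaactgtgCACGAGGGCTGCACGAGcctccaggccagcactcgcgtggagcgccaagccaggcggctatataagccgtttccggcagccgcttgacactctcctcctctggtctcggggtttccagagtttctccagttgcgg

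Genes of lipid metabolism moved little. The single calls in these lists stand beside 2.41% raised and 0.895% lowered of all genes tested. Of 14 genes of lipogenesis 1 was raised (median log2 fold change 0.10). This was Dgat2, which makes triglyceride, at 201, 143 and 124 CPM untreated and 299, 152 and 179.8 CPM with mP (log2 fold change 0.40, SE 0.11, adjusted p = 0.0349). Of 24 genes of cholesterol synthesis and uptake Insig1, which retains SREBP in the endoplasmic reticulum, was raised (log2 fold change 0.48, SE 0.10, adjusted p = 0.00718) and none was lowered (median 0.03). Gpr146 was the 1 raised of 9 genes of cholesterol efflux and LXR (log2 fold change 0.57, SE 0.15, adjusted p = 0.0283). By edgeR 0 genes were raised or lowered among 18 of fatty acid oxidation and ketogenesis, 13 of bile acid synthesis and transport, and 11 of lipoprotein assembly and lipases (medians 0.09, 0.07 and 0.00). Each of these lists had 2 genes at an unadjusted p under 0.05, and DESeq2 called 1, 0 and 1.

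Genes of antiviral and inflammatory responses were measured because the vector is a virus. The few calls in the lists of this paragraph stand beside 2.41% raised and 0.895% lowered of all genes tested. Of 30 tested genes of the interferon response and 7 of innate sensing edgeR and DESeq2 called 0, with 2 and 1 at an unadjusted p under 0.05 (medians 0.07 and 0.02). Isg15, a marker of interferon signalling, was 60.2, 18.8 and 39.0 CPM untreated and 62.2, 23 and 26.7 CPM with mP (log2 fold change -0.06, SE 0.21, adjusted p = 0.953). Of 15 NF-kB and chemokine genes Bcl3, a nuclear cofactor of NF-kB, was lowered (log2 fold change -0.67, SE 0.16, adjusted p = 0.0142) and none was raised (median -0.15). Of 24 acute phase genes Steap4, a metalloreductase, was raised (log2 fold change 0.64, SE 0.12, adjusted p = 0.00197). Among 18 genes of ATF4 and the unfolded protein response, Chac1, which degrades glutathione, and Herpud1, of the degradation of proteins from the endoplasmic reticulum, were raised by 1.41 (SE 0.35, adjusted p = 0.022) and 0.51 (SE 0.11, adjusted p = 0.00567). By edgeR 0 genes were raised or lowered among 14 immediate early genes, 19 of ribosome biogenesis, 20 cytochromes P450, 17 major urinary proteins and 13 mitochondrially encoded genes, with list medians between -0.06 and 0.07. In these 5 lists 3, 2, 2, 4 and 1 genes had an unadjusted p under 0.05, and DESeq2 called 1 major urinary protein gene and 0 of the others. Single major urinary protein genes were spread widely, and they share reads with near-identical copies. Among 18 genes of hepatocyte transcription factors and secreted proteins Prox1 was raised, from 21.9, 21.4 and 20.7 CPM to 34.7, 33.5 and 30.3 CPM (log2 fold change 0.62, SE 0.17, adjusted p = 0.0429).

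**Figure D4:**
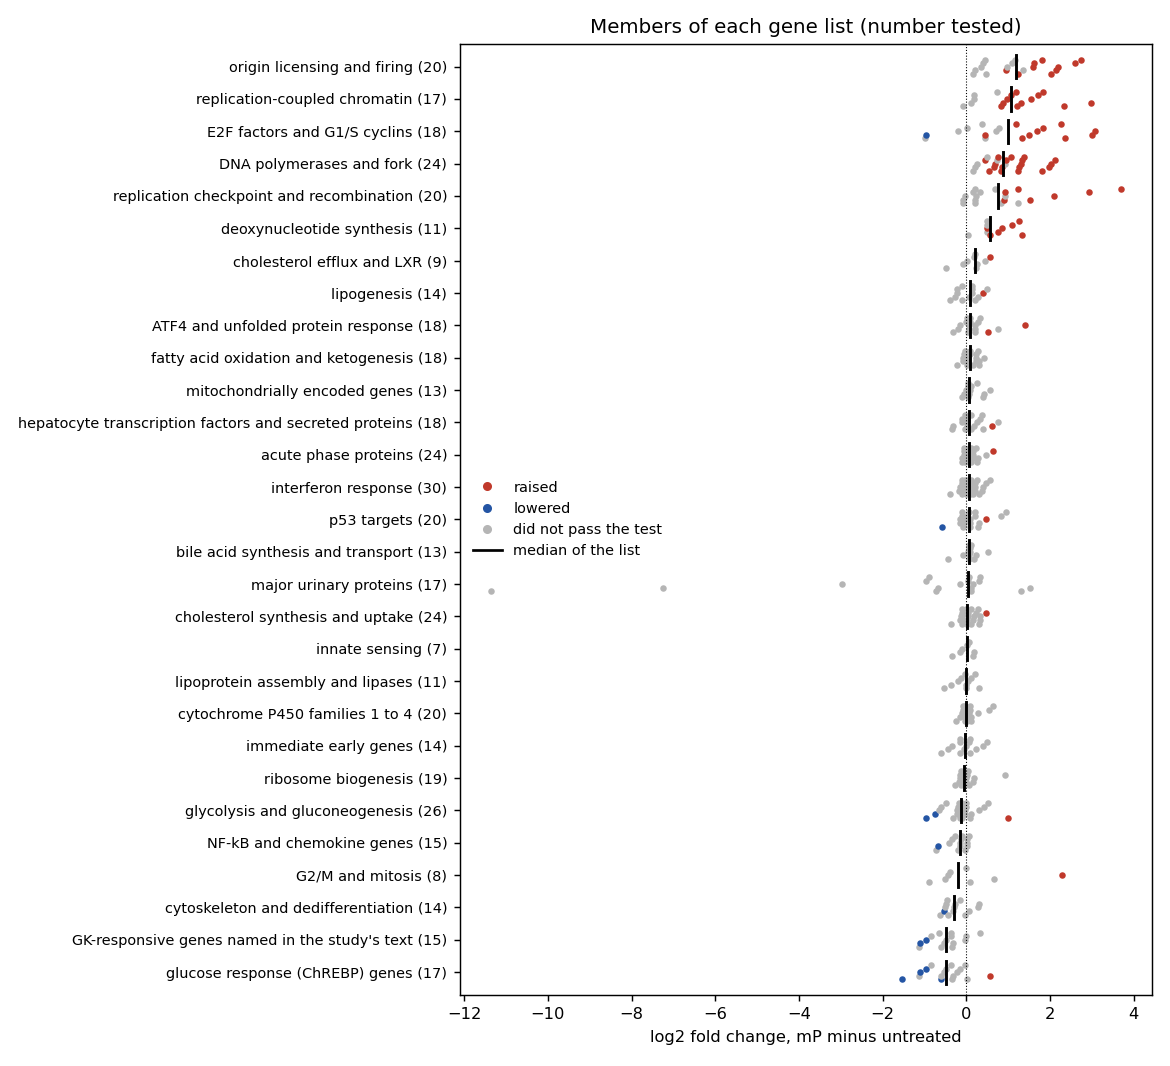
Log2 fold change with mP (x axis) of the tested members of 29 gene lists (rows, with the number tested), each point 1 gene and each black bar the median of the list. The 6 replication lists are at the top with medians from 0.58 to 1.2, and the 2 lists of glucose and GK-responsive genes at the bottom with medians of -0.48.

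Of 14 tested genes of a list of cytoskeleton and dedifferentiation 1 was lowered, beside 0.895% of all genes, and 0 were raised. It was Krt18, a keratin of hepatocytes, at 3597, 4274 and 3452 CPM untreated and 2037, 3361 and 2618 CPM with mP (log2 fold change -0.53, SE 0.13, adjusted p = 0.0151). In this list 11 members had a fold change below 1 and the median was -0.30. Outside the list, Flnc, a filamin that crosslinks actin, was 18.8, 32.2 and 24.6 CPM untreated and 4.01, 11.7 and 13.4 CPM with mP (log2 fold change -1.57, SE 0.36, adjusted p = 0.0114). It did not pass the test without mouse 2, at -1.64 (adjusted p = 0.192), without mouse 3, at -1.9 (adjusted p = 0.0953), or without the mouse in the model, at -1.39 (adjusted p = 0.784). Tpm2, a tropomyosin, was 78.9, 89.8 and 89.8 CPM untreated and 18.8, 35 and 50.7 CPM with mP (log2 fold change -1.43, SE 0.19, adjusted p = 3.68e-05). The groups of Flnc and Tpm2 did not overlap, and mouse 1 had the lowest mP value in both. Shroom1, a protein that binds actin, fell by 1.08 (SE 0.18, adjusted p = 0.000772), and without mouse 3 its adjusted p was 0.0603. Among other lowered genes, chosen after their values were seen, Actn1 and Vcl, which link actin to adhesions, fell by 0.66 (SE 0.15, adjusted p = 0.0108) and 0.53 (SE 0.15, adjusted p = 0.0401).

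The other genes of large change have varied roles. Trp53inp2, a protein of autophagy, was 32.1, 47.8 and 45.1 CPM untreated and 9.03, 26.2 and 15.6 CPM with mP (log2 fold change -1.40, SE 0.17, adjusted p = 9.12e-06), and Deptor, an inhibitor of mTOR, fell by 1.21 (SE 0.27, adjusted p = 0.0099), with its call lost without mouse 1 (adjusted p = 0.127) or mouse 3 (adjusted p = 0.27). Clcn5, an endosomal chloride transporter, fell by 1.18 (SE 0.16, adjusted p = 4.75e-05). Cldn4, a claudin of tight junctions, Hivep3, Ndufb4, Mss51 and Tubb2b had log2 fold changes between -1.73 and -1.21 at mean untreated levels under 10 CPM. Each of these 5 lost its call without mouse 3 (adjusted p = 0.22, 0.224, 0.245, 0.452 and 0.21, in this order), and each also without mouse 1 or mouse 2. Ptp4a1 was 35.1, 98.6 and 43.0 CPM untreated and 16.5, 15.7 and 22.1 CPM with mP (log2 fold change -1.70, SE 0.47, adjusted p = 0.0395), and 1 untreated culture of mouse 2 held 165 CPM while the other 5 held 31.2 to 45.2 CPM. It did not pass the test without mouse 2, at a log2 fold change of -1.03, or without mouse 3, at -2.13. Ftl2-ps, a ferritin pseudogene nearly identical to Ftl1, had the lowest fitted value among the genes lowered, and it is uncertain because reads can be shared with its copy. It was 0.370 and 929 CPM in the 2 untreated cultures of mouse 1, 286 and 0 in those of mouse 2, and 101 and 0.180 in those of mouse 3, so 1 culture of each pair held nearly all its reads. With mP it was 0.187, 0 and 0 CPM, and its call was lost without mouse 2 (adjusted p = 0.0526) or mouse 3 (adjusted p = 0.169). Among raised genes outside the lists, Paqr4 was 0.594, 0.450 and 0.224 CPM untreated and 7.31, 3.24 and 3.6 CPM with mP (log2 fold change 3.40, SE 0.45), and Fignl1, which acts in homologous recombination, rose by 2.46 (SE 0.23). Dppa3 rose by 2.30 (SE 0.42, adjusted p = 0.00197) from 3.17, 0.0750 and 0.447 CPM to 12.6, 0.648 and 3.09 CPM. Its groups overlapped, and its call was lost without mouse 1 (adjusted p = 0.0952).

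The mP vector was then compared with the other GKRP vectors at endogenous GK. Against hP, which differs in species, edgeR called 1 of 12177 genes (0.00821%), with 259 at an unadjusted p under 0.05, and DESeq2 called 38. The 1 gene was mouse Gckr, at 74.2 ± 39.8 CPM with hP (SD, n = 3, log2 difference 7.88, SE 0.74, adjusted p = 8.42e-06). This is the gene that the mP vector itself carries. Reads were counted against mouse transcripts only, so human GCKR of hP and hL has no entry. The call therefore does not compare GKRP expression between the vectors. Against mL, which differs from mP in residue 446, edgeR called 0 genes (0%), with 455 genes at an unadjusted p under 0.05 and 17 called by DESeq2. Gckr was 0.28 higher with mP than with mL on the log2 scale (95% interval -0.87 to 1.42, adjusted p = 1). Against the mean of hP, hL and mL, where the same limit holds for Gckr, edgeR called Gckr alone (0.00821%). It called 2 genes when low counts were not filtered, and DESeq2 called 16. Of the leading genes, Chek1, Mcm5, Pklr and Txnip did not pass the test, and their intervals hold 0 and bound the difference. Chek1 was 0.29 higher with mP than with hP (95% interval -0.30 to 0.88) and 0.27 higher than with mL (-0.32 to 0.87). Mcm5 was 0.21 higher than with hP (-0.11 to 0.53) and 0.12 higher than with mL (-0.20 to 0.44). For Pklr the log2 difference was -0.19 from hP (-0.50 to 0.11) and -0.12 from mL (-0.43 to 0.19), and for Txnip -0.09 (-0.73 to 0.55) and -0.31 (-0.95 to 0.33). Some other named genes had an unadjusted 95% interval that left out 0, though they did not pass the test. Against the mean of hP, hL and mL, Cdk2 was 0.26 higher (0.13 to 0.38, adjusted p = 0.529). For Hivep3 this difference was -1.49 (-2.25 to -0.73, adjusted p = 0.595) and for Shroom1 -0.56 (-0.89 to -0.24, adjusted p = 0.884). Most of the other named genes had intervals that held 0. The lowest adjusted p against mL was that of Hspa8, a heat shock cognate chaperone (log2 difference -0.44, SE 0.08, adjusted p = 0.23). Against the mean of hP, hL and mL, the lowest after Gckr was that of Pnrc1 (log2 difference -0.66, SE 0.11, adjusted p = 0.0628). Against hP it was that of Zfp688 (log2 difference 1.59, SE 0.30, adjusted p = 0.209).

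Against the same untreated cultures, which all 4 comparisons share, each vector gave its own values. Ccne1 had log2 fold changes of 2.74, 2.63, 3.00 and 3.01 for hP, hL, mP and mL (SE 0.23 for each). For Mcm5 they were 2.53, 2.46, 2.74 and 2.62 and for Pklr -0.77, -0.60, -0.97 and -0.85. Other genes were less alike, as Hivep3, at a low level, had -0.41, -0.12, -1.73 and -0.21 and Shroom1 -1.02, 0, -1.08 and -0.53. The list medians of origin licensing were 1.09, 1.27, 1.2 and 1.44, and those of the glucose response -0.52, -0.37, -0.48 and -0.39.

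**Figure D5:**
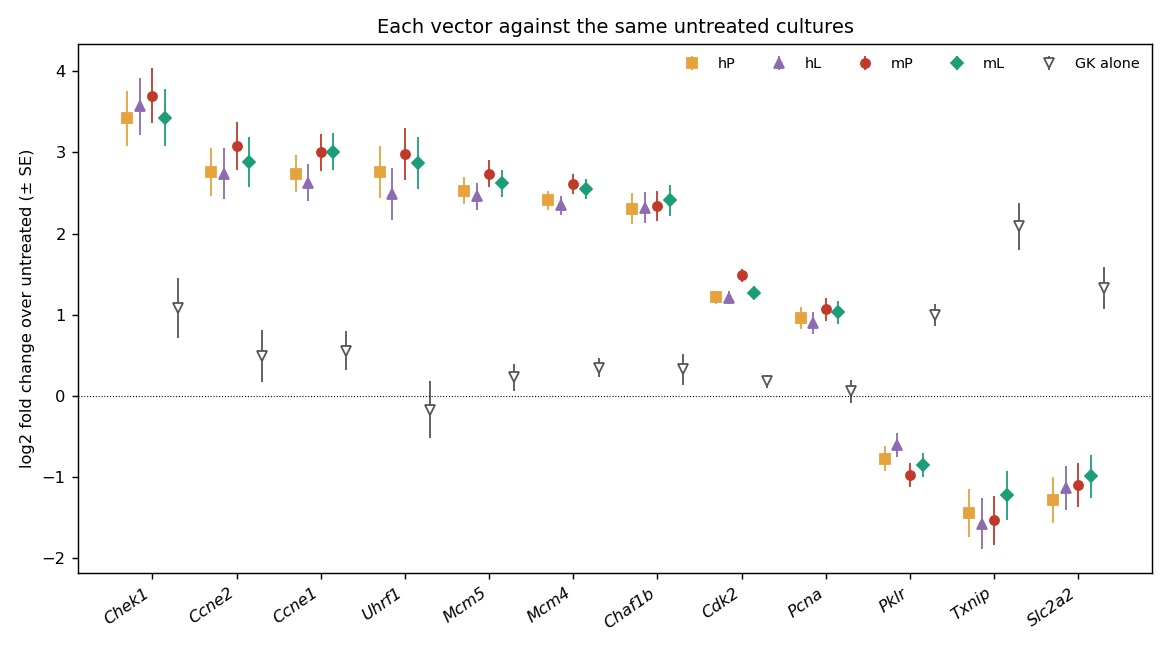
Log2 fold change over untreated (y axis, ± SE of the edgeR fit, n = 3 mice) of 12 genes with hP, hL, mP, mL and GK overexpression alone, all against the same untreated cultures. The 4 GKRP vectors lie close together, and GK alone lies below each of them for the 9 replication genes and above 0 for Pklr, Txnip and Slc2a2.

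GK overexpression used another adenovirus without GKRP, at a titre set to raise GK. This comparison was added after the values were seen. GK was a transgene of its own and its titre was not matched to that of mP, so the pair differs in more than GKRP. With GK alone 42 genes were raised (0.345%) and 2 lowered (0.0164%) against untreated, and of the 110 replication genes 1 was raised (median log2 fold change 0.05). Against GK alone, mP raised 357 genes (2.93%) and lowered 217 (1.78%), and of the 110 replication genes 71 were raised and 1 was lowered (median 0.88). Mcm5 was 2.51 higher with mP than with GK alone on the log2 scale (adjusted p = 1.9e-09), Ccne1 2.45 higher (adjusted p = 2.01e-07) and Chek1 2.63 higher (adjusted p = 8.63e-06). The glucose response genes went the other way, with 16 of 17 lowered with mP against GK alone (median -1.97) and 14 of 17 raised with GK alone against untreated (median 1.29). One GK culture of mouse 3 held 1462 CPM of Gckr while the other 5 held 51.8 to 98.1 CPM. Without this culture 67 of the 110 replication genes were raised with mP against GK alone and 0 with GK alone against untreated.

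The effect of mP could also differ with the level of GK. The effect of mP added to GK overexpression minus its effect at endogenous GK was called by edgeR for 1 gene (0.00821%), with 771 at an unadjusted p under 0.05. DESeq2 called 40 genes, and edgeR without the mouse in the model 0. Ulk1, the kinase that starts autophagy, was 44.4 ± 22.6 CPM untreated, 33.7 ± 19.1 CPM with mP, 102 ± 41.6 CPM with GK and 36.4 ± 17.5 CPM with GK and mP (SD, n = 3). The mP effect was lower by 1.12 on the log2 scale with GK (95% interval -1.49 to -0.75, adjusted p = 0.0397), and the call was lost without mouse 1 or without mouse 2. For Mcm5 the difference was -0.14 (-0.61 to 0.34) and for Pklr -0.66 (-1.09 to -0.23, adjusted p = 0.588).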

How the data were processed

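RNA of 36 cultures of primary hepatocytes from 3 mice was sequenced, of which the main comparison uses 9. The authors ran Salmon 1.4.0 (from the submitters' processing notes) on untrimmed reads against Gencode M26 transcripts of GRCm39, and deposited for each culture and transcript the expected counts (estimated, not normalized), the TPM, normalized within the library by the authors, and the effective length. Replicates were not pooled.

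The expected counts of 137570 of 139225 transcripts (98.8%) were paired with 52230 genes through a later Gencode release of the same build (M39 annotation) and summed, the cultures of a mouse and condition were added, and the sums were rounded. The unmatched transcripts held 0.392% to 0.639% of a library. The 2 untreated cultures of a mouse were not copies of each other, with a chi-square over genes of 14.4 to 30.3 times its degrees of freedom. Depth limits the precision of genes under about 1 CPM. A standard error covers counting error and the scatter left after condition and mouse are taken out, estimated over all 10 conditions.

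R 4.3.3 and edgeR 4.0.16 were used (filterByExpr, TMM, glmQLFit and glmQLFTest) on 30 samples of 10 conditions with condition and mouse as terms, and Benjamini-Hochberg adjustment over 12177 genes. A gene was raised or lowered at an adjusted p under 0.05 and a fold of at least 1.3 or at most 0.7. The mouse pairs the samples, since cultures of the same animal share a preparation. Deviations of untreated and mP samples correlated at 0.373, 0.232 and 0.148 within mice 1, 2 and 3, and the biological coefficient of variation was 0.231 with and 0.323 without the mouse. The study used DESeq2 and names no such term. P-values rest on the scatter left after condition and mouse are taken out, pooled over 30 samples of 10 conditions. Most of these conditions lie outside the main comparison, and all come from 3 mice.

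Named genes were Gckr, 15 raised and 15 lowered with the largest changes that agree in 3 of 3 mice at a mean of at least 1 CPM and have a gene symbol other than a clone name, the called members of each of 29 lists with the 4 of smallest p, and reference genes. Some genes that this rule names are not reported here. Other list members are given to complete a list's description. Members and lists were chosen with earlier results of these data known. Alternatives were another model, normalization, filter, tool (DESeq2 1.42.0), fold, set of samples or cultures, a transcript length offset, and each mouse left out. The test was checked on simulated counts. Promoter windows are from RefSeq (GRCm38.p6), in which no coordinate was converted.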

Additional observations from a re-analysis of the deposited data

Results flagged for a closer look

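In 3 of 40 named results, 1 of the 6 untreated cultures stood apart from the rest by Dixon's test, which flags about 1 in 20 groups by chance. Ptp4a1 was 165 CPM in 1 culture of mouse 2 and 31.2 to 45.2 CPM in the others. Ftl2-ps was 929 CPM in 1 culture of mouse 1 and at most 286 CPM elsewhere. Chek1 was 1.6 CPM in 1 culture of mouse 2 and 0.253 to 0.739 CPM in the others, and the lowest mP culture was at 6.81 CPM. The effect of mP on Ulk1 differed between endogenous and overexpressed GK, by -1.12 on the log2 scale (adjusted p = 0.0397 in the interaction contrast of the edgeR fit).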

How the results depend on the processing

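With no replicate block, so that samples are not paired by mouse, edgeR raised 121 genes and lowered 15, all 136 of them also called with the mouse in the model, and DESeq2 raised 147 and lowered 53. The list members called fell from 84 to 51, the lowered glucose response genes from 4 to 0 with either tool, and the effect of mP that differs with GK from 1 gene to 0. The 6 samples of mP and untreated alone gave 52 raised and 31 lowered, with 28 replication genes raised and 1 glucose response gene lowered. A transcript length offset gave 23 and 3, with 8 replication genes and 0 glucose response genes. With it the biological coefficient of variation was 0.462 in place of 0.231. With no filter on low counts 192 genes were raised, 2 were called against the mean of the other GKRP vectors and 2 for the difference with GK. At a fold of at least 2 or at most 0.5 the counts were 123 and 20, and with the adjusted p alone 183 were lowered. DESeq2 with the mouse called 38 genes against hP, 17 against mL, 16 against the mean of the others and 40 for the difference with GK.

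Leaving out each mouse in turn gave 69 to 183 raised and 19 to 71 lowered genes, 35 to 56 raised replication genes, 1 to 5 lowered glucose response genes and 0 to 1 genes whose mP effect differed with GK. The sign of 4 named genes that did not pass the test turned under 1 setting or more. On the log2 scale, leaving out each mouse gave -0.94 to 0.14 for G6pc, -0.26 to 0.15 for Isg15 and -0.44 to 0.21 for Ccnd1. Isg15 was at 0.25 and Mki67 at 1.04 with the length offset. RLE normalization and library sizes without Gckr kept the direction and call of 39 of 39 named genes. The fit without the GK condition and the difference with GK without 1 GK culture were chosen after seeing the data, and changed no count by over 1.5 times. Causes were not tested. Genes under about 1 CPM, most mitotic genes among them, are limited by depth.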
